A study of Mus musculus with 6 samples.

Results

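The 10 genes described here encode the contractile machinery of smooth muscle: the actins Acta2 and Actg2, the myosin subunits Myh11 and Myl9, the kinase Mylk, the tropomyosins Tpm1 and Tpm2, and the actin-binding proteins Cnn1, Tagln and Lmod1. They were found by their NCBI gene numbers among the 18305 genes of the count tables, and all 10 were present and passed the filter on low counts. RNA sequencing was done on cultured cells of KM mice, with 2 libraries in each of 3 groups. CiLC are embryonic fibroblasts that were passaged 3 to 5 times and given small molecules 24 hours after seeding. The labels name neither the compounds nor the length of treatment. LC are Leydig cells, which make androgen in the testis, and were passaged 0 to 1 times. MEF are the fibroblasts not labelled as induced, also passaged 3 to 5 times. The fibroblasts came from embryos of 12.5 or 13.5 days and LC from testis tissue, and the age of the LC donors is not given in the sources used here. Tissue and passage cannot be told apart between LC and either fibroblast group. The series asked how closely CiLC resemble LC in their overall expression.

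In smooth muscle, calcium and calmodulin activate myosin light chain kinase, which phosphorylates the regulatory light chain so that myosin can pull on actin. Tropomyosin, calponin and leiomodin bind the actin filament and shape or hold it. Most of these genes are switched on by serum response factor (SRF), which binds DNA sites called CArG boxes with a cofactor, either myocardin or a myocardin-related transcription factor. Cultured fibroblasts that take on contractile features, called myofibroblasts, are known for Acta2 in particular.

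The libraries held 18.4 to 18.9 M estimated reads. Of 8 Leydig markers, Star, Cyp11a1, Hsd3b1 and Nr5a1 were present in LC and Insl3 had 104 and 120 reads, whereas Hsd3b6 had 7.72 and 3.56 estimated reads, Cyp17a1 0 and 1 reads and Lhcgr 3 and 2 reads there. Of 8 markers of Sertoli cells, the supporting cells of the testis, some were also high in LC. Wt1 had 2107 and 2103 reads in LC against 122 and 97 in MEF, and Cldn11 had 2057 and 1967 against 75 and 65. Others were low in LC: Amh had 27 and 27 reads, Fshr 10 and 2, and Rhox5 0 and 2. Values given for LC therefore stand for cultures with this mix of markers, and the part of Sertoli cells in them was not tested. None of 8 fibroblast markers was absent from MEF, CiLC or LC, so their presence does not set the groups apart, but their levels differed. Postn was 97.6-fold, Thy1 68.9-fold and Lum 15.9-fold lower in LC than in MEF, while Pdgfra was 5.91-fold higher. In CiLC against MEF, 5 of the 8 were called higher and 3 lower, beside 26.1% and 25.5% of all genes. In LC against MEF, 3 of them were called higher and 5 lower, beside 35.7% and 35.0% of all genes. No label tells whether a group's libraries were grown separately or drawn from separate animals, so the p-values reflect only how these libraries vary, which may be technical.

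All 10 genes were lower in CiLC than in MEF, with edgeR's quasi-likelihood test adjusted over 14581 genes (adjusted p of at most 4.86e-15). Across all genes tested, 25.5% were called lower in that comparison. The fold ran from 2.34 for Tpm2 to 27.3 for Cnn1, and all 10 genes fell at least 2-fold, against 5.98% of all genes. The median log2 fold change of the 10 genes was -3.52, beside 0.0054 over all genes. LC and MEF divided the genes instead: 5 were higher in LC, beside 35.7% of all genes called higher, and 5 were lower, beside 35.0% called lower. In LC, 3 of the genes fell at least 2-fold, against 12.9% of all genes, and 1 rose at least 2-fold, against 14.3%. Between CiLC and LC, all 10 genes were lower in CiLC, where 35.6% of all genes were called lower, and 9 fell at least 2-fold, against 14.0% of all genes. The 3 comparisons share libraries and are not independent of each other.

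**Figure D1:**
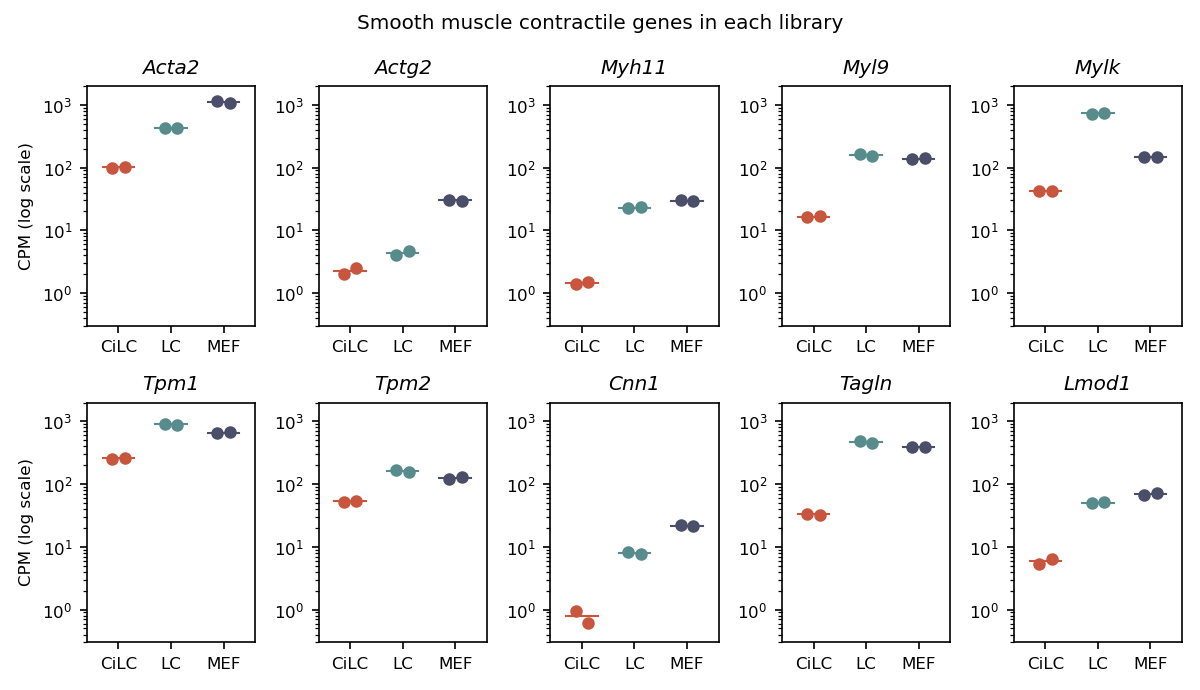
Scaled read level (CPM, on a log axis) of each gene in each library, by group; points are the 2 libraries and lines their mean. The CiLC points lie below the LC and MEF points in every panel, Mylk is highest in LC, and Acta2 and Actg2 are highest in MEF.

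Levels are given in CPM, a gene's reads per 1 M reads, scaled for library composition. Acta2 (NCBI gene 11475), the alpha actin of vascular smooth muscle and of myofibroblasts, had 98.4 and 103 CPM in CiLC, 424 and 430.3 CPM in LC, and 1168 and 1091 CPM in MEF. Acta2 was lowest in CiLC and highest in MEF, with no overlap between the libraries of the 3 groups. It fell 11.2-fold in CiLC against MEF (log2 fold change -3.49 ± 0.051 SE, edgeR adjusted p = 3.15e-23) and 2.65-fold in LC against MEF (log2 fold change -1.40 ± 0.047 SE, adjusted p = 9.02e-18). Actg2 (11468), the gamma actin of gut and other visceral smooth muscle, had 2.04 and 2.54 CPM in CiLC, 4.001 and 4.77 CPM in LC, and 30.8 and 29.6 CPM in MEF. Unlike the other 9 genes, it was lower by less than 2-fold in CiLC against LC (1.91-fold, log2 fold change -0.94 ± 0.19 SE, edgeR adjusted p = 0.000104). It fell 6.88-fold in LC against MEF, the largest drop of the 10 genes in that comparison. All 6 values of Acta2 and 1 value of Actg2 had a fractional part, which can come from dividing reads between similar genes, so their levels are less certain.

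Since all 10 genes were lower in CiLC, the DNA just before their start sites is shown for the members whose window holds a CArG-like element. The windows run from 250 bases before to 50 after a start site and come from RefSeq (build GRCm38.p6, whereas the submitters' processing notes name mm9). A window was found for 7 members, Acta2, Cnn1, Lmod1, Myl9, Mylk, Tpm1 and Tpm2. Capitals mark each stretch that matches the CArG box with at most 1 mismatch. The Acta2 window (chr19:34255324-34255623, minus strand) holds 2 such stretches, at -84 and -34 from the start site, each with 1 mismatch. The Acta2 promoter of rodents is known for a pair of CArG elements that depart from the consensus. The Myl9 window (chr2:156775214-156775513, plus strand) holds an exact match at -161 and a stretch with 1 mismatch at -99.
Acta2: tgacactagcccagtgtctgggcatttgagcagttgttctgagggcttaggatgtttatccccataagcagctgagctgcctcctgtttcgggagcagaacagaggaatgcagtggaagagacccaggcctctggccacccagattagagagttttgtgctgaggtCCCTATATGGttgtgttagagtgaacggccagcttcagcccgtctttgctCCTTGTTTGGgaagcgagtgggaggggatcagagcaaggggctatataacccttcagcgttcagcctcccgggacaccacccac
Myl9: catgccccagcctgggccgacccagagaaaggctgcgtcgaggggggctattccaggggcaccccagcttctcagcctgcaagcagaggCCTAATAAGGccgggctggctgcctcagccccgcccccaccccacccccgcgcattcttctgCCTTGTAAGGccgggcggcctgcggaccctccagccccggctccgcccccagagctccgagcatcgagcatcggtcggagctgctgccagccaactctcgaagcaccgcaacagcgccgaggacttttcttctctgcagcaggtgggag
Lmod1: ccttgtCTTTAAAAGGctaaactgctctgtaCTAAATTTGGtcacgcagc
Tpm1: ctcgggtccCCATATATAGtcatatccacc
The Lmod1 stretch (chr1:135324618-135324667, plus strand) holds 2 of its elements and the Tpm1 stretch (chr9:67049414-67049443, minus strand) 1 of its 2, all with 1 mismatch. An exact CArG box was present in 1 of the 7 member windows and in 1.63% of all 32851 windows in the RefSeq table, and one with at most 1 mismatch in 4 of 7 and in 21.1%. The consensus reads the same on both strands. The MCAT element, CATTCC or its reverse GGAATG, to which TEAD factors bind, was in 4 of the 7 windows (Acta2, Lmod1, Mylk and Tpm1) and in 14.7% of all windows. These matches describe the letters of these windows and say nothing of binding.

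Myh11 (17880), the heavy chain of smooth muscle myosin, had 1.37 and 1.52 CPM in CiLC, 22.3 and 23.5 CPM in LC, and 30.5 and 29.0 CPM in MEF. Its CiLC values rest on 27.0 and 30.1 estimated reads, and all 6 of its values had a fractional part, so its levels are less certain. LC and CiLC thus stood far apart for this gene, while LC were close to MEF: it fell 15.8-fold in CiLC against LC (log2 fold change -3.98 ± 0.18 SE, edgeR adjusted p = 1.36e-17), 20.5-fold in CiLC against MEF, and 1.30-fold in LC against MEF (adjusted p = 0.000168). Myl9 (98932), a regulatory light chain of myosin, had 16.3 and 16.9 CPM in CiLC, 164 and 155 CPM in LC, and 137 and 142 CPM in MEF. It fell 8.38-fold in CiLC against MEF and 9.58-fold in CiLC against LC (edgeR adjusted p = 2.72e-22). Its rise in LC against MEF was 1.14-fold (log2 fold change 0.19 ± 0.048 SE, adjusted p = 0.00106), the smallest difference of any member in any comparison.

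Mylk (107589), the kinase that phosphorylates the light chain, had 43.2 and 43.0 CPM in CiLC, 728 and 741 CPM in LC, and 147 and 148 CPM in MEF. The rise in LC against MEF was 4.99-fold (log2 fold change 2.32 ± 0.045 SE, edgeR adjusted p = 3.56e-22), and Mylk was the only member to rise more than 2-fold there. In CiLC it fell 3.42-fold against MEF and 17.1-fold against LC, and no other member fell as far between CiLC and LC. The annotation of GRCm38 places exons of the antisense genes E130310I04Rik and Gm21691 over those of Mylk, and the strand setting of the counts is not given in the sources used here.

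The tropomyosins changed least in CiLC against MEF. Both genes also make isoforms outside muscle. Tpm1 (22003) had 252 and 261 CPM in CiLC, 925 and 867 CPM in LC, and 656 and 671 CPM in MEF. It fell 2.58-fold in CiLC against MEF (log2 fold change -1.37 ± 0.048 SE, edgeR adjusted p = 7.24e-17) and rose 1.35-fold in LC against MEF (adjusted p = 1.68e-08). Tpm2 (22004) had 52.6 and 54.2 CPM in CiLC, 166 and 157 CPM in LC, and 122 and 128 CPM in MEF. It followed Tpm1 in each comparison, with a 2.34-fold fall in CiLC against MEF and a 1.30-fold rise in LC against MEF.

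Cnn1 (12797), a calponin that binds actin and slows myosin, had the fewest reads of the members in CiLC, 19 and 12, or 0.967 and 0.609 CPM. It had 8.18 and 7.83 CPM in LC and 22.2 and 21.2 CPM in MEF. Its fall in CiLC against MEF was the steepest of the 10 genes (27.3-fold, log2 fold change -4.77 ± 0.25 SE, edgeR adjusted p = 5.17e-17), and it also fell 2.71-fold in LC against MEF. Tagln (21345), the actin-bundling protein also called SM22 alpha, had 33.7 and 32.4 CPM in CiLC, 481 and 459 CPM in LC, and 388 and 388 CPM in MEF. CiLC stood 11.7-fold below MEF and 14.2-fold below LC, whereas LC were 1.21-fold above MEF (log2 fold change 0.28 ± 0.045 SE, edgeR adjusted p = 8.38e-06). All 6 Tagln values were not whole, and in GRCm38 exons of Pcsk7 and Gm48529 lie over it on the opposite strand. Lmod1 (93689), a leiomodin that starts actin filaments in smooth muscle, had 5.29 and 6.44 CPM in CiLC, 50.9 and 51.0 CPM in LC, and 67.9 and 73.1 CPM in MEF. It was lower in CiLC than in MEF (log2 fold change -3.59 ± 0.10 SE), and it fell 8.67-fold in CiLC against LC, and 1.38-fold in LC against MEF (edgeR adjusted p = 2.56e-07).

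**Figure D2:**
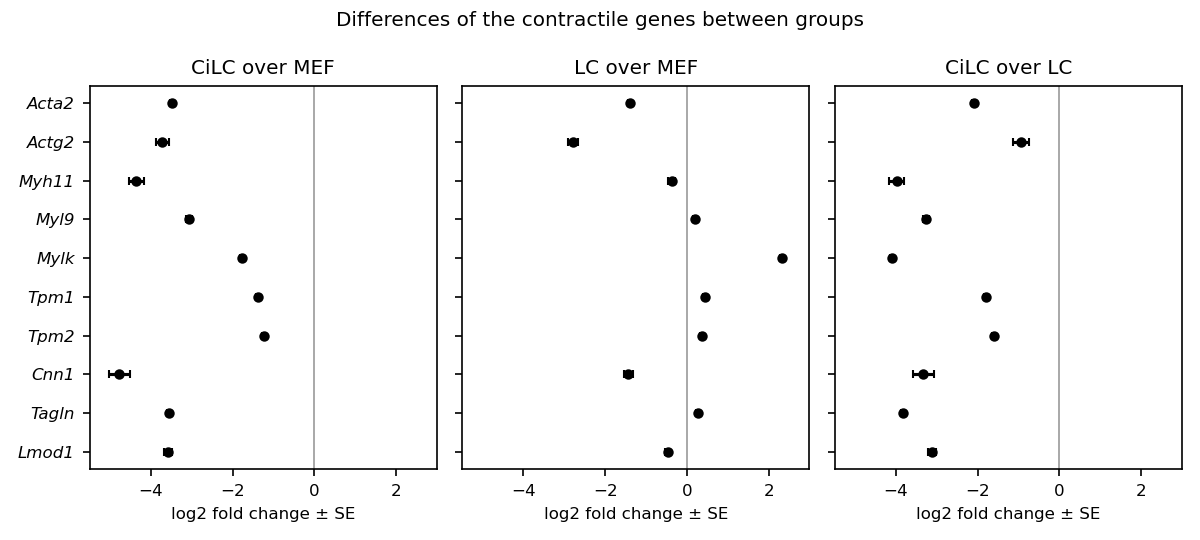
Log2 fold change with its standard error for the 10 genes in the comparisons of CiLC with MEF, LC with MEF, and CiLC with LC. All points lie left of 0 where CiLC is compared, from -4.77 for Cnn1 to -0.94 for Actg2, while in LC against MEF they lie on both sides, from -2.78 for Actg2 to 2.32 for Mylk.

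The number of these calls depends on how much separate cultures would vary, which these libraries may not show: their fitted biological coefficient of variation was 3.16%. With a coefficient of 0.4 assumed for every gene in edgeR's likelihood-ratio test, 7 of the 10 genes were still called lower in CiLC against MEF, beside 1.84% of all genes called lower and 2.79% called higher, and Mylk (adjusted p = 0.0594), Tpm1 (0.259) and Tpm2 (0.409) were not. In CiLC against LC, 9 were called lower, beside 9.01% of all genes called lower and 6.43% called higher, and Actg2 was not (adjusted p = 0.447). In LC against MEF only Mylk stayed called as higher, beside 9.94% of all genes, and only Actg2 as lower, beside 7.26%. The other 8 differences between LC and MEF, at most 2.71-fold, were not called in that setting (adjusted p from 0.0836 for Cnn1 to 0.998 for Myl9). The smaller differences of the lists described were lost as well: of 24 other smooth muscle genes, 2 were then called lower and 1 higher in CiLC against MEF, and 12 lower and 2 higher in CiLC against LC.

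Summed over the 10 genes, the level was 506 and 522 CPM in CiLC, 2972 and 2897 CPM in LC, and 2768 and 2722 CPM in MEF. CiLC libraries thus held far less contractile gene RNA than either other culture. LC lay above MEF on this scale, but below it as a share of unscaled reads, which was 0.0539% and 0.0557% in CiLC, 0.274% and 0.265% in LC, and 0.283% and 0.276% in MEF, so no order between LC and MEF is drawn from the sum. In such bulk samples, fewer cells of a type and less RNA per cell cannot be told apart.

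Levels of different genes were compared per kilobase of exon, with lengths from GENCODE M21 that count all exons of a gene. A gene with several start sites or isoforms, such as Mylk or Tpm1, may therefore be understated. Acta2 led in MEF, at 555 ± 26.6 CPM per kb (SD, n = 2), and was second in CiLC and LC. Tagln led in LC, at 295 ± 9.6 CPM per kb, above Acta2 at 209.9 ± 2.24 CPM per kb. In CiLC the order was Tpm1, at 53.7 ± 1.3 CPM per kb, then Acta2, at 49.5 ± 1.66 CPM per kb. At the low end, Cnn1 and Actg2 did not differ beyond their spread in LC (3.17 ± 0.0972 and 3.21 ± 0.397 CPM per kb), nor did Lmod1 and Actg2 in CiLC (1.49 ± 0.206 and 1.67 ± 0.259 CPM per kb). As a share of the summed level per kb, Acta2 made up 28.8% and 29.4% in CiLC, 20.2% and 21.2% in LC, and 47.9% and 45.8% in MEF. Tpm1 made up 31.5% and 31.6% in CiLC, 18.8% and 18.2% in LC, and 11.5% and 11.99% in MEF. Mylk made up 3.18% and 3.08% in CiLC, 8.73% and 9.17% in LC, and 1.51% and 1.56% in MEF. The mixture therefore differed between all 3 groups. With these lengths, actin led in MEF, tropomyosin and actin in CiLC, and Tagln in LC. The order depends on the lengths: before division by length, Tpm1 led in LC, at 895.9 CPM, above Mylk at 734.5 CPM and Tagln at 470.1 CPM.

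**Figure D3:**
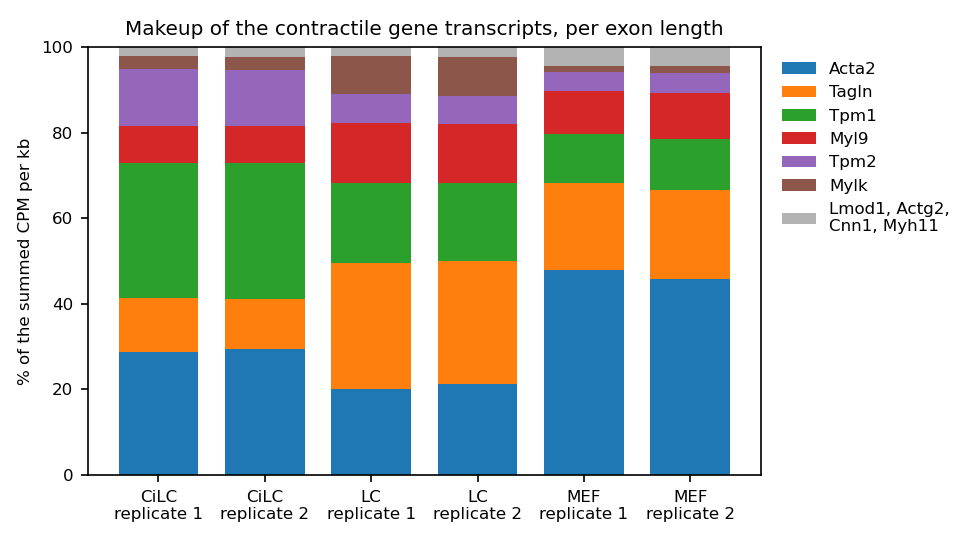
Share of the summed level per kilobase (CPM per kb, in percent) that each contractile gene takes in each library, with the 4 least abundant genes pooled. Acta2 takes 47.9% and 45.8% in MEF but 20.2% and 21.2% in LC, and Tpm1 takes 31.5% and 31.6% in CiLC.

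Most members have a relative outside smooth muscle that does the same job in other cells. The reads of each member were therefore set against those of its family, a share that does not depend on the scaling of libraries. These shares are not corrected for length, so they are compared between libraries and not between families. The widest of their 95% Wilson intervals, which cover counting error only, reached 0.876 percentage points to either side, for transgelin. All 6 values of the relatives Actb, Actg1, Myh9, Myh10, Tagln2, Tpm3, Myl12a and Myl12b had a fractional part. Reads may thus have been divided within a family, which the intervals do not cover. Acta2 and Actg2 took 3.58% and 3.68% of actin reads in CiLC, 7.34% and 7.52% in LC, and 23.8% and 22.7% in MEF. Actin reads in the 3 groups therefore differed in makeup as well as number. Actb, a cytoplasmic actin of all cells, fell 1.31-fold in CiLC against MEF (edgeR adjusted p = 1.13e-07) and rose 1.31-fold in LC against MEF, and Actg1, the other cytoplasmic actin, likewise fell in CiLC (log2 fold change -0.58) and rose in LC (0.58). For Actg2 alone, the share was 0.0725% and 0.0883% in CiLC, 0.0687% and 0.0824% in LC, and 0.612% and 0.5997% in MEF. The CiLC and LC values of that share overlapped, although the CPM of Actg2 differed.

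Cnn1 took 0.391% and 0.243% of calponin reads in CiLC, 0.970% and 0.993% in LC, and 4.09% and 3.94% in MEF. The relative Cnn3 was highest in LC, where it rose 2.89-fold against MEF (edgeR adjusted p = 3.08e-18). Tagln took 8.70% and 7.86% of transgelin reads in CiLC, 42.97% and 41.98% in LC, and 64.6% and 63.2% in MEF. LC therefore had a smaller Tagln share than MEF although Tagln itself was called higher, and Tagln2, a transgelin of many cell types, rose 2.91-fold in LC (edgeR adjusted p = 3.07e-18). Tagln2 rose in CiLC too, by 1.67-fold against MEF, where Tagln fell.

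Myh11 took 0.126% and 0.143% of myosin heavy chain reads in CiLC, 1.38% and 1.38% in LC, and 1.39% and 1.199% in MEF. LC and MEF overlapped for this share. Among its non-muscle relatives, Myh9 fell 1.89-fold in CiLC against MEF (edgeR adjusted p = 4.33e-13) and had 1590 ± 60.6 CPM in LC and 1605 ± 119 CPM in MEF, where it was not called (adjusted p = 0.822). Myh10 fell 2.98-fold in CiLC and 15.1-fold in LC, each against MEF. Myl9 took 4.84% and 4.77% of the reads of its light chain family in CiLC, 25.1% and 25.4% in LC, and 23.2% and 24.2% in MEF. Tpm1 and Tpm2 took 29.6% and 29.9% of tropomyosin reads in CiLC, 46.0% and 45.0% in LC, and 44.7% and 45.3% in MEF, with LC and MEF overlapping. In all 6 families the CiLC libraries had the lowest shares. The shares are given as descriptions, with no test.

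**Figure D4:**
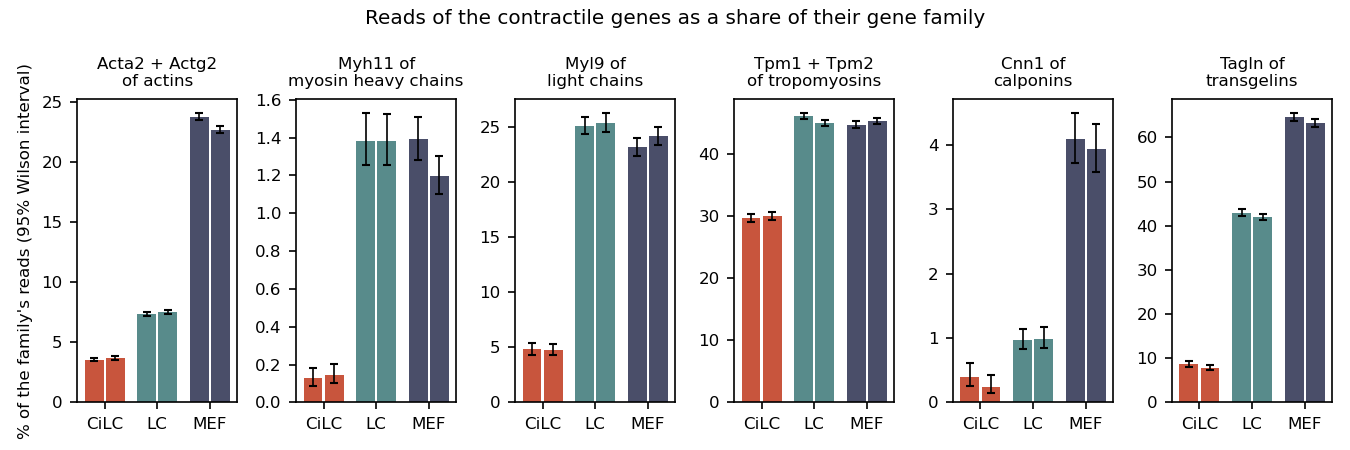
Reads of the contractile genes as a percentage of all reads of their gene family, 1 bar per library with its 95% Wilson interval; each panel has its own scale from 0. The CiLC bars are the lowest in each panel, and LC and MEF bars overlap for myosin heavy chain and tropomyosin.

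The other genes of the pathway are read against 26.1% of all genes called higher and 25.5% called lower in CiLC against MEF, 35.7% called higher and 35.0% called lower in LC against MEF, and 35.0% called higher and 35.6% called lower in CiLC against LC. Of 17 genes for SRF, its cofactors and other regulators, 9 fell and 3 rose in CiLC against MEF (median log2 fold change -0.41). Srf itself had 60.9 and 66.1 CPM in CiLC, 107 and 107 CPM in LC, and 61.4 and 62.1 CPM in MEF. It was not called in CiLC against MEF (log2 fold change 0.040 ± 0.056 SE, edgeR adjusted p = 0.579) and rose 1.73-fold in LC against MEF. Myocd, which encodes myocardin, had 8 and 6 reads in CiLC, 8 and 12 in LC, and 44 and 39 in MEF. It fell 6.00-fold in CiLC (edgeR adjusted p = 5.47e-06) and 3.68-fold in LC (adjusted p = 7.14e-05), each against MEF, and was not called between CiLC and LC (adjusted p = 0.218). Several members had high levels in LC, where Myocd reads were low, and a link between Myocd and the members was not tested. Of the myocardin-related factors, Mrtfa fell 1.56-fold and Mrtfb 1.33-fold in CiLC against MEF (edgeR adjusted p = 1.18e-09 and 3.44e-06), and neither was called in LC against MEF (adjusted p = 0.217 and 0.123).

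Other genes of this list moved by more. Fhl2, a LIM protein that is an SRF target and partner, fell 4.19-fold in CiLC against MEF. The transcription factor Tcf21 and Klf5 rose 9.42-fold and 2.25-fold there. In LC against MEF, 8 of the 17 genes fell and 4 rose, led by Tcf21 (367-fold) and Lmcd1, a LIM protein (33.4-fold), with Fhl1 6.62-fold lower. The Tcf21 folds rest on 6 and 1 reads in MEF: without MEF replicate 1 its log2 fold change was 4.92 in CiLC and 10.20 in LC, and without MEF replicate 2 it was 2.47 and 7.76. In CiLC against LC, 9 fell and 6 rose: Tcf21 and Lmcd1 were 38.9-fold and 33.5-fold lower, and Fhl1 and Mef2c 3.77-fold and 1.94-fold higher. Short stretches of windows with an exact CArG box are shown for Srf and Fhl2 and for 3 genes of the other lists, chosen after their values were seen.
Srf: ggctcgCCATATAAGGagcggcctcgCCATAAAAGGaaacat
Fhl2: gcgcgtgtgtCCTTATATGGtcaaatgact
Cnn2: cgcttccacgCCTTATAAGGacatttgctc
Vcl: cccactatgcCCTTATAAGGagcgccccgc
Actg1: ggaaagatcgCCATATATGGacatgttctg
Capitals mark the CArG box, and these stretches lie at chr17:46556209-46556250, minus strand for Srf, chr1:43163973-43164002, minus strand for Fhl2, chr10:79988534-79988563, plus strand for Cnn2, chr14:20929161-20929190, plus strand for Vcl and chr11:120348566-120348595, minus strand for Actg1. Fhl2 had a further exact match, CCAAAAAAGG at -96 from a start site, that is not shown. In all, 13 of 136 other listed genes with a window held an exact match. The 5 shown are examples of the element and give no direction for genes that hold it.

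RhoA and its kinase ROCK keep smooth muscle contracted by blocking myosin phosphatase. Of 19 genes of this arm, 10 fell and 4 rose in CiLC against MEF (median log2 fold change -0.13), mostly by little. The exception was Ppp1r14a, the phosphatase inhibitor CPI-17 of smooth muscle, with 4 and 7 reads in CiLC, 136 and 132 in LC, and 169 and 133 in MEF. It fell 27.6-fold in CiLC against MEF and 27.4-fold against LC (edgeR adjusted p = 6.9e-13 and 3.46e-13). The phosphatase subunit Ppp1r12b and the exchange factor Arhgef12 rose 1.57-fold and 1.35-fold in CiLC against MEF. Prkg1, the cyclic GMP dependent kinase that relaxes smooth muscle, had 75.4 and 72.2 CPM in CiLC, 2.78 and 2.24 CPM in LC, and 136 and 124 CPM in MEF. It fell 51.5-fold in LC against MEF and 1.76-fold in CiLC against MEF, and was 29.3-fold higher in CiLC than in LC. Of the 19 genes, 10 rose and 6 fell in LC against MEF, among them Ppp1r12b (2.73-fold higher), the small GTPase gene Rhoc (2.36-fold higher) and the exchange factor Arhgef25 (1.65-fold lower). In CiLC against LC, 12 fell and 6 rose, with Rhoc 2.49-fold lower and Arhgef25 1.40-fold higher.

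Of 24 other smooth muscle genes of the cytoskeleton and membrane, 15 fell and 4 rose in CiLC against MEF (median log2 fold change -0.68). Nexn, an actin-binding protein, fell 7.15-fold and the integrin Itga8 4.58-fold, whereas Npnt, a matrix ligand of that integrin, rose 11.9-fold and the intermediate filament gene Synm 2.51-fold. Of the same 24 genes, 15 rose and 6 fell in LC against MEF (median log2 fold change 0.61). The Z-disc gene Pdlim3 rose 183-fold, with 685 and 666 reads in LC against 5 and 3 in MEF, and the small heat shock gene Hspb7 31.1-fold. Itga8 fell 16.6-fold and Synpo2 6.32-fold in LC. In CiLC against LC, 18 fell and 5 rose: Pdlim3 and Sorbs2 were 117-fold and 41.2-fold lower, and Npnt and Itga8 11.1-fold and 3.62-fold higher. The Pdlim3 log2 fold change in CiLC against LC was -9.42 without CiLC replicate 1 and -5.99 without CiLC replicate 2.

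Genes for actin bundling and focal adhesions, which anchor the filaments to the cell surface, fell by less but in nearly the whole list. Of 20 genes, 18 fell and 1 rose in CiLC against MEF (median log2 fold change -0.52), with Tln2, a talin, 2.63-fold lower and Tes 2.30-fold lower. The riser was Cfl2, a cofilin (1.11-fold, edgeR adjusted p = 0.0386), and its call was lost with DESeq2 (adjusted p = 0.157). Against MEF, LC had 13 of these genes higher and 4 lower, with Cfl2 3.17-fold and Fblim1 1.96-fold higher and Tln2 3.07-fold and Tes 1.71-fold lower. In CiLC against LC 18 fell and 1 rose, with Fblim1 3.27-fold and the actinin Actn1 2.91-fold lower and Tln2 1.17-fold higher. That Tln2 call was lost without a filter (adjusted p = 0.06). With a coefficient of variation of 0.4 in edgeR's likelihood-ratio test, 0 of the 20 genes were called in CiLC against MEF, where 2 had an unadjusted p under 0.05, and Fblim1 alone stayed lower in CiLC against LC.

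Among the relatives of the members, 19 of 25 passed the filter, and 12 fell and 3 rose in CiLC against MEF (median log2 fold change -0.39, against -3.52 for the members). Tmod2, a tropomodulin, rose 1.89-fold and the calponin Cnn2 fell 2.51-fold. Of these relatives 9 rose and 4 fell in LC against MEF, with Myh14 9.09-fold higher and the skeletal kinase gene Mylk2 2.46-fold lower, a call lost with DESeq2 (adjusted p = 0.0501) and of log2 size -1.94 without LC replicate 1 and -0.87 without LC replicate 2. In CiLC against LC 13 fell and 3 rose, with Myh14 6.52-fold and Cnn3 4.76-fold lower and Myh10 5.08-fold and Tmod2 4.06-fold higher. The Myh14 folds rest on few reads: 7 and 6 in CiLC, 35 and 40 in LC, and 5 and 4 in MEF. The striated actins Acta1 and Actc1 had at most 7.05 estimated reads in any library.

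**Figure D5:**
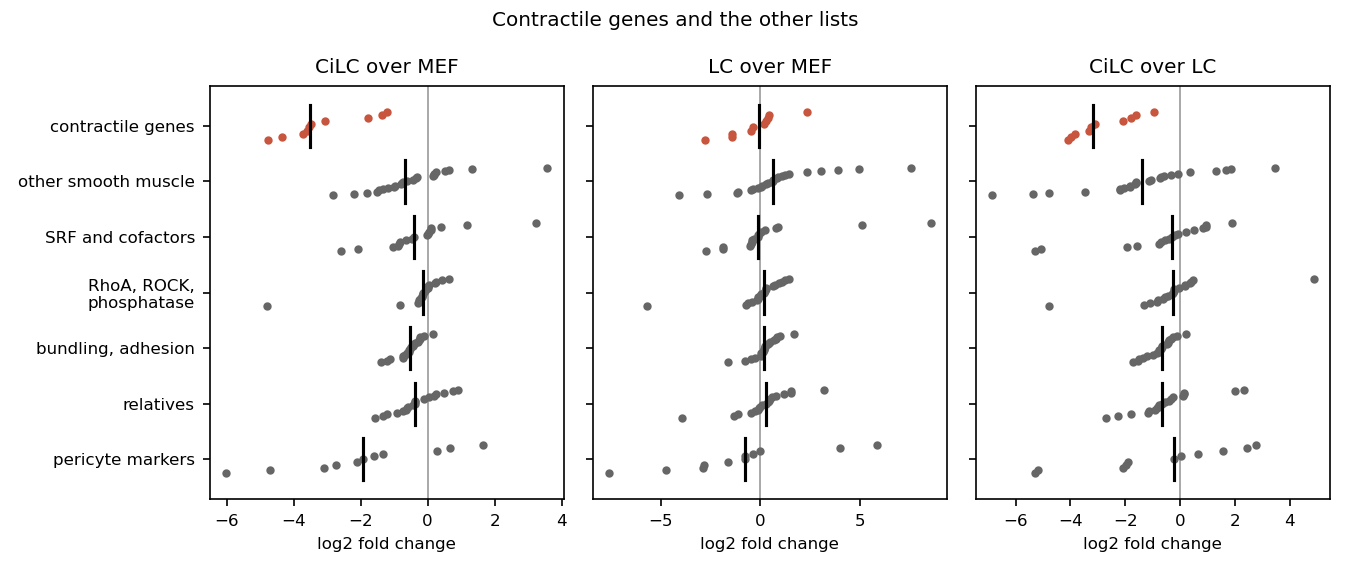
Log2 fold changes of each tested gene in the contractile list and 6 other lists, in the 3 comparisons; each point is a gene and each vertical bar the list's median. In CiLC over MEF the median of the contractile genes (-3.52) lies further left than those of the other lists, of which the pericyte markers come closest (median -1.92).

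Pericytes, which wrap small vessels, share contractile genes with smooth muscle. Their 12 markers summed to 332 and 326 CPM in CiLC, 589 and 598 CPM in LC, and 1188 and 1191 CPM in MEF. Of 11 tested, 8 fell and 2 rose in CiLC against MEF, and 7 fell and 2 rose in LC against MEF. Over all genes, 25.5% were called lower and 26.1% higher in CiLC against MEF, and 35.0% and 35.7% in LC against MEF. The counts of called markers in this and the following lists stand beside these shares, and no result about a list is drawn from them. Higd1b had 2 and 1 reads in CiLC and 0 in LC and MEF, and Rgs5 had 20 and 25 reads in CiLC, 6 and 7 in LC, and 1549 and 1317 in MEF. Other pericyte markers went the other way. Ndufa4l2 had 84 and 83 reads in CiLC, 2647 and 2629 in LC, and 53 and 49 in MEF. Cox4i2 was 15.7-fold higher in LC than in MEF, and Kcnj8 3.15-fold higher in CiLC than in MEF. Pdgfrb was the largest part of each sum, with 249 and 240 CPM in CiLC, 239 and 238 CPM in LC, and 741 and 748 CPM in MEF. Macrophage markers (8 genes) summed to 3131 and 3162 CPM in CiLC, 1111 and 1091 CPM in LC, and 4277 and 4309.6 CPM in MEF, with 5 lower and 2 higher in CiLC against MEF. In LC against MEF, 7 of them were lower and 1 higher. All 8 were higher in CiLC than in LC, where 35.0% of all genes were called higher. Endothelial markers (8 genes) summed to 46.3 and 44.5 CPM in CiLC, 78.5 and 87.2 CPM in LC, and 163 and 163 CPM in MEF, but the members went both ways: of 7 tested, 3 fell and 2 rose in CiLC against MEF, and 2 fell and 3 rose in LC against MEF. Flt1 made up most of the MEF sum, with 32.8 and 31.3 CPM in CiLC, 4.06 and 3.94 CPM in LC, and 134 and 134 CPM in MEF. Cdh5 made up most of the LC sum, with 4.68 and 4.97 CPM in CiLC, 57.2 and 63.9 CPM in LC, and 4.14 and 3.02 CPM in MEF. Sertoli cell markers (8 genes) summed to 183 and 184 CPM in CiLC, 497 and 488 CPM in LC, and 38.01 and 36.7 CPM in MEF, and of 6 tested, 4 rose in CiLC and 6 in LC, each against MEF. Most of their CiLC sum was Inhbb, with 133 and 137 CPM in CiLC, 81.6 and 80.4 CPM in LC, and 8.28 and 9.89 CPM in MEF.

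Markers of skeletal and cardiac muscle, which shares tropomyosin genes with smooth muscle, were mixed. Of 24 found in the tables, 11 could be tested: 1 rose and 4 fell in CiLC against MEF, 5 rose and 2 fell in LC against MEF, and 2 rose and 5 fell in CiLC against LC. Over all genes, 26.1% were called higher and 25.5% lower in CiLC against MEF. The shares were 35.7% and 35.0% in LC against MEF, and 35.0% and 35.6% in CiLC against LC. Ttn, which encodes the giant sarcomere protein titin, had 195 and 212 reads in CiLC, 25 and 30 in LC, and 21 and 15 in MEF. Des, which encodes the intermediate filament desmin of all muscle types, had 145 and 128 reads in CiLC, 495 and 487 in LC, and 188 and 219 in MEF. Tnnt3, a fast skeletal troponin, had 19 and 9 reads in CiLC, 13 and 18 in LC, and 85 and 74 in MEF. The muscle regulators Myog and Myf5 and the kinase gene Ckm had at most 1 read in any library. The part of any of these cell types in the results for the contractile genes was not tested.

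The genes outside the list whose pattern was most like the members' were found by the root mean square difference of centred log2(CPM + 0.5) values from the members' median, over 6 libraries, for 11381 genes that averaged 5 CPM or more. Slc1a6, a glutamate transporter, was nearest (0.191 log2 units), followed by Ankrd1 (0.257), Tpbgl (0.278), Ppp1r14a (0.291) and Tnfrsf11b, which encodes osteoprotegerin (0.309). Ppp1r14a had 0.204 and 0.355 CPM in CiLC, below the 0.5 added, so its place depends on that addition. It reached the average of 5 CPM only through its LC and MEF levels. Slc1a6 had 1.48 and 1.42 CPM in CiLC, 11.8 and 12.7 CPM in LC, and 20.5 and 23.6 CPM in MEF. Of the members themselves, Lmod1 lay nearest to their median (0.14) and Mylk (1.11) and Actg2 (1.012) furthest from it. Lmod1 and Myl9 thus stood for the common pattern, low in CiLC and within 1.38-fold of each other in LC and MEF, whereas Mylk lay above it in LC and below it in MEF, and Actg2 lay below it in LC and above it in MEF.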

How the data were processed

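The values are expected counts, that is estimated reads per gene, which the authors deposited as 1 file per library with NCBI gene numbers. The submitters' processing notes name HISAT, a read aligner, and the build mm9. For the counting tool, annotation and strand setting, the sources used here give nothing. From 32.4% to 32.8% of values per library had a fractional part. Symbols were found for 18179 of 18305 genes in a RefSeq table of GRCm38.p6, from which only names and promoter windows were taken; exon lengths and overlaps come from GENCODE M21. The markers Myod1 and Pax7 were not analysed here.

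After rounding, edgeR 4.0.16 (R 4.3.3) was run with filterByExpr (minimum count 10, minimum total 15), which left 14581 genes, scaling by trimmed mean of M values, and a quasi-likelihood fit of all 6 libraries with group as the only term. The prior count of log2 fold changes was 0.125, tests were two-sided, and Benjamini-Hochberg adjustment ran over all genes tested, with a threshold of 0.05. Standard errors come from the fitted weights and moderated dispersion. The procedure was also run on counts simulated with the dispersion fitted to these libraries, which cannot show how much separate cultures would vary. Replicates of a group differed by more than sampling noise (chi-square per degree of freedom 1.80 to 2.94 over genes of at least 20 reads) and were kept apart.

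Alternatives were the size factors of DESeq2, its Wald test (version 1.42.0), no filter, only the 4 libraries compared, the replicate number as a block, an assumed coefficient of variation of 0.4, and each library left out. The 10 genes and the lists were chosen with earlier results of these data known. All 10 are named; of the 5 lists of other pathway genes, the 2 called genes with the largest change in each direction, and Srf, Myocd, Mrtfa, Mrtfb, Actb, Actg1, Myh9 and Myh10. Genes of the cell type marker lists were named after their values were seen.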

Additional observations from a re-analysis of the deposited data

How the results depend on the processing

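Member counts were the same with DESeq2's size factors, with its Wald test, with no filter, with a fit of the 4 libraries at issue, with the replicate block and without any 1 library: 10 lower in CiLC against MEF and against LC, and 5 higher and 5 lower in LC against MEF. Only an assumed coefficient of variation of 0.4 changed them. In LC against MEF it left 1 member lower and 1 higher. Over all genes it left 268 lower and 407 higher in CiLC against MEF, 1058 lower and 1450 higher in LC against MEF, and 1314 lower and 937 higher in CiLC against LC. For single members, 348 of the values under alternatives stayed on the same side of the threshold and 12 lost their call, all at 0.4. For the other named genes, 1096 stayed, 60 lost their call, 2 gained one and 5 changed sign.

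The sign changes were in genes that were not called. Srf in CiLC against MEF ran from a log2 fold change of -0.021 to 0.094 when 1 library was left out. Myh9 in LC against MEF ran from -0.097 to 0.062 and Ppp1r14a from -0.18 to 0.17.

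No pairing of the libraries by replicate number was seen, though a weak one could be missed. Deviations of same-numbered libraries from their group means correlated at 0.030 for CiLC and MEF, -0.051 for CiLC and LC, and 0.069 for LC and MEF. With the replicate block, 3714 genes were lower and 3791 higher in CiLC against MEF, 5107 and 5187 in LC against MEF, and 5190 and 5100 in CiLC against LC. Depth limits Cnn1, Actg2 and Myh11 in CiLC, with 12 to 50 reads a library.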
